A study of Mus musculus with 8 samples.

Results

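Glutathione reductase and the glutaredoxins, the enzymes of the glutathione-dependent route of disulfide reduction, were read by 13 of 45037 probe-sets in livers whose hepatocytes lack thioredoxin reductase-1 and in control livers. The members were taken as every probe-set annotated to Gsr, Glrx, Glrx2, Glrx3 or Glrx5, which are 5 of 18193 genes. Of the 13 probe-sets, 9 carry a single gene symbol and 4 are shared by Glrx3 and Gm12669, a transcribed pseudogene in RefSeq. Whole-liver RNA was measured on 1 array per animal in 4 txnrd1cond/-;albCre1 males (animals 69, 72, 73 and 81) and in 4 txnrd1cond/+;albCre0 males (animals 70, 71, 80 and 82). Mice of both genotypes were young adults, were housed singly for 10 days before harvest and were killed at a fixed time of the afternoon. In the first genotype Cre recombinase is made in hepatocytes, from the albumin promoter. Cre deletes the only functional txnrd1 allele there, so the hepatocytes, and below the livers, are denoted txnrd1-/-, whereas other liver cell types have no Cre and keep 1 conditional allele beside the null allele. The controls, denoted txnrd1cond/+, carry 1 conditional and 1 wild-type allele and have no Cre. In whole-liver RNA, fewer cells of a type and less RNA per cell cannot be told apart.

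Cells hold parallel NADPH-driven routes to reduced thiols. In one, thioredoxin reductase reduces thioredoxin, which reduces protein disulfides. In the other, glutathione reductase, a flavoprotein encoded by Gsr, uses NADPH to return glutathione disulfide to glutathione, and glutaredoxins spend that glutathione on protein disulfides and on proteins modified by glutathione. The dithiol glutaredoxins Glrx and Glrx2 are disulfide reductases, whereas the monothiol glutaredoxins Glrx3 and Glrx5 are known mainly for carrying iron-sulfur clusters. Liver is rich in glutathione and in the enzymes that regenerate it. The comparison asks whether mRNAs of the glutathione route differ in livers that have lost the cytoplasmic enzyme of the thioredoxin route.

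The deposited values are linear ratios of each probe-set to about its median over the 8 arrays, so a value of 1 is the middle of these livers and levels of different genes cannot be compared. For the same reason the presence of hepatocyte transcripts could not be checked by level. The geometric mean ratio over 8 hepatocyte genes ran from 0.926 to 1.05 in txnrd1-/- livers and from 0.974 to 1.05 in txnrd1cond/+ livers. Txnrd1 itself was read by 3 probe-sets that did not run together, with log2 fold changes (txnrd1-/- over txnrd1cond/+) of 1.11, -0.71 and -0.41, and no source used here places them inside or outside the deleted segment, so they do not check the labels. Control animal 71 stood apart in digestive enzyme transcripts of the pancreas, for example a ratio of 26.27 for Cpa1, against 0.836 to 1.65 in the other 7 livers. Over 9 lists of cell type markers 0 genes passed the adjusted test (Prtn3, of the neutrophil list, was lower at an unadjusted p). The list medians lay between -0.15 and 0.04 apart from the pancreatic list (-0.9). All 8 endothelial, all 8 stellate, all 4 measured erythroid and all 4 measured pancreatic markers were at or below 0 (medians -0.14, -0.15, -0.14 and -0.9). Of all genes, 51.1% were above 0. The part of these cell types in the results was not tested. Bacterial hybridization controls split the arrays 2 and 2 within each genotype. Their ratios were 0.698, 0.757, 1.216 and 1.376 in txnrd1-/- livers and 0.666, 0.888, 1.105 and 1.301 in txnrd1cond/+ livers. With the mean log2 ratio of these controls as a covariate, the log2 fold change was 0.635 for Gsr and 0.410 for Glrx. Without the covariate the values were 0.633 and 0.413. Over all probe-sets the most alike arrays were of opposite genotype, animals 72 and 71 (r = 0.50) and animals 69 and 70 (r = 0.42), whereas pairs within a genotype reached at most 0.15.

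All 5 members had a higher mean ratio in txnrd1-/- livers than in controls, but 0 of them passed the adjusted test. A gene was called when limma gave an adjusted p of at most 0.05 (Benjamini-Hochberg over all genes) together with a 1.5-fold difference. By this rule 0 of 5 member genes were called in either direction, against 14 higher genes (0.077%) and 1 lower gene (0.0055%) of 18193 on the array. Among probe-sets, 0 of 13 were called, against 12 higher (0.0266%) and 0 lower of 45037. At an unadjusted p of at most 0.05 the members higher in txnrd1-/- livers were Gsr and Glrx, 2 of 5 genes, where 1.71% of all genes were higher and 0.605% lower, and 0 members were lower. At the same p 3 of 13 probe-sets were higher, both of Gsr and 1 of Glrx, beside 1.26% of all probe-sets. With a 1.5-fold minimum added, Gsr alone remained among genes (background 0.572%) and its 2 probe-sets among probe-sets (background 0.484%).

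**Figure D1:**
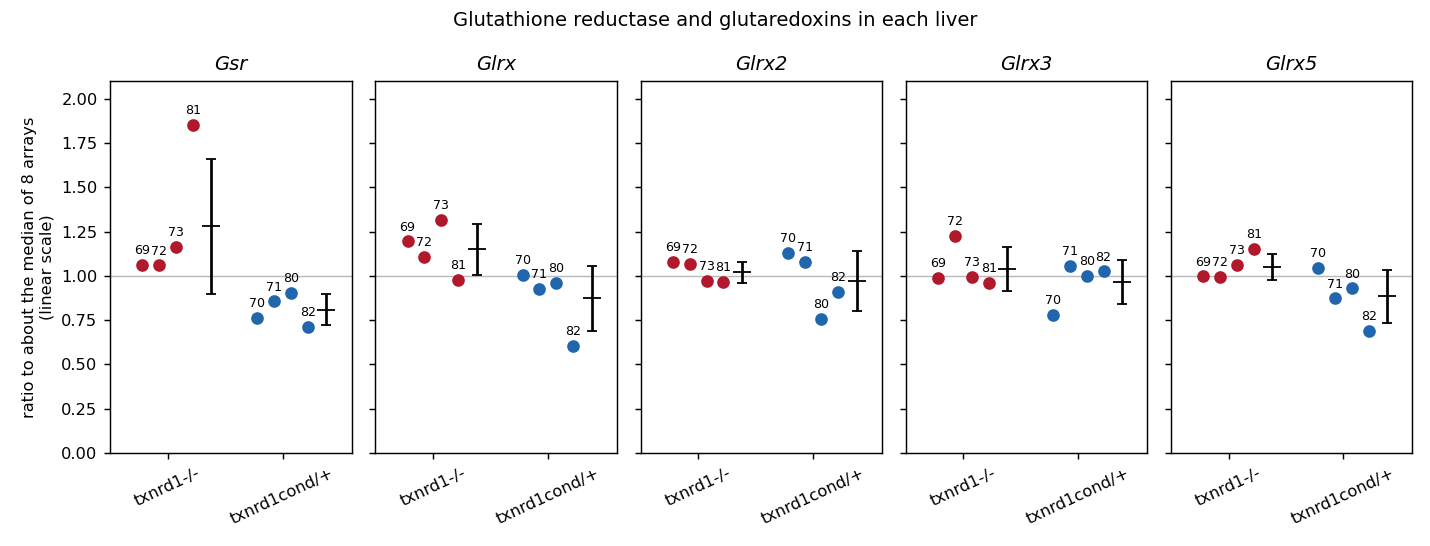
Deposited ratio of each member gene (linear scale, mean of its probe-sets with a single symbol) in each liver, numbered by animal, with txnrd1-/- livers in red left of txnrd1cond/+ livers in blue and the mean ± SD of each group (n = 4) as a bar. Gsr is the member whose groups do not overlap, and its highest liver, animal 81 at 1.853, stands well above the other 7.

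Gsr, which encodes glutathione reductase, had the largest difference of the 5. Its ratio was 1.064, 1.059, 1.162 and 1.853 in txnrd1-/- livers 69, 72, 73 and 81, against 0.761, 0.856, 0.905 and 0.712 in txnrd1cond/+ livers 70, 71, 80 and 82. Every txnrd1-/- liver was above every control, and animal 81 was far above the other 3 txnrd1-/- livers, which lay close together. The means were 1.28 ± 0.382 in txnrd1-/- livers and 0.808 ± 0.0875 in txnrd1cond/+ livers (SD, n = 4 each). The log2 fold change was 0.63 (SE 0.18, 95% interval 0.22 to 1.04), that is 1.55-fold with an interval of 1.17- to 2.06-fold. The adjusted p in limma was 1, from an unadjusted p = 0.0064, and an exact permutation test over the 8 livers gave p = 0.029 (2-sided), the smallest that 4 against 4 livers allow. Groups that do not overlap with txnrd1-/- higher occurred in 205 of 18193 genes (1.13%), and 99.3% of genes had a lower log2 fold change than Gsr.

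The size of the Gsr difference depended on animal 81, whereas its direction did not. Without animal 81 the log2 fold change was 0.44 (SE 0.12), and leaving out each of the other 7 livers gave 0.57 to 0.71. Gsr had an unadjusted p of at most 0.05 in all 18 alternatives, 2 of them tests of each gene alone (0.0025 to 0.039), and its lowest adjusted p was 0.67. Animal numbers fall into the ranges 69 to 73 and 80 to 82, each with both genotypes. Within the first range the mean ratio of Gsr was 1.1 in 3 txnrd1-/- livers and 0.808 in 2 txnrd1cond/+ livers, a log2 difference of 0.44. Within the second it was 1.85 in the single txnrd1-/- liver, animal 81, and 0.808 in 2 txnrd1cond/+ livers, a log2 difference of 1.21. With the range as a covariate the log2 fold change of Gsr was 0.71, and without control animal 71 it was 0.66.

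Both probe-sets of Gsr gave the same picture. Probe-set 1421816_at stood at 1.011, 1.045, 1.185 and 1.822 in txnrd1-/- livers 69, 72, 73 and 81, against 0.737, 0.79, 0.98 and 0.743 in txnrd1cond/+ livers 70, 71, 80 and 82. Probe-set 1421817_at stood at 1.12, 1.074, 1.14 and 1.884 in txnrd1-/- livers, against 0.786, 0.927, 0.835 and 0.683 in txnrd1cond/+ livers, in the same order of animals. Neither overlapped between the genotypes, and both peaked in animal 81. Among all probe-sets 0.897% had every txnrd1-/- liver above every control. Their log2 fold changes were 0.61 (SE 0.20, 95% interval 0.17 to 1.04) and 0.66 (SE 0.19, 95% interval 0.23 to 1.09), 1.52- and 1.58-fold, each with an adjusted p of 1 in limma. Over the 8 livers they correlated at r = 0.94, and at 0.86 after each genotype's mean was taken out. They are read from the same RNA and are not separate evidence.

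**Figure D2:**
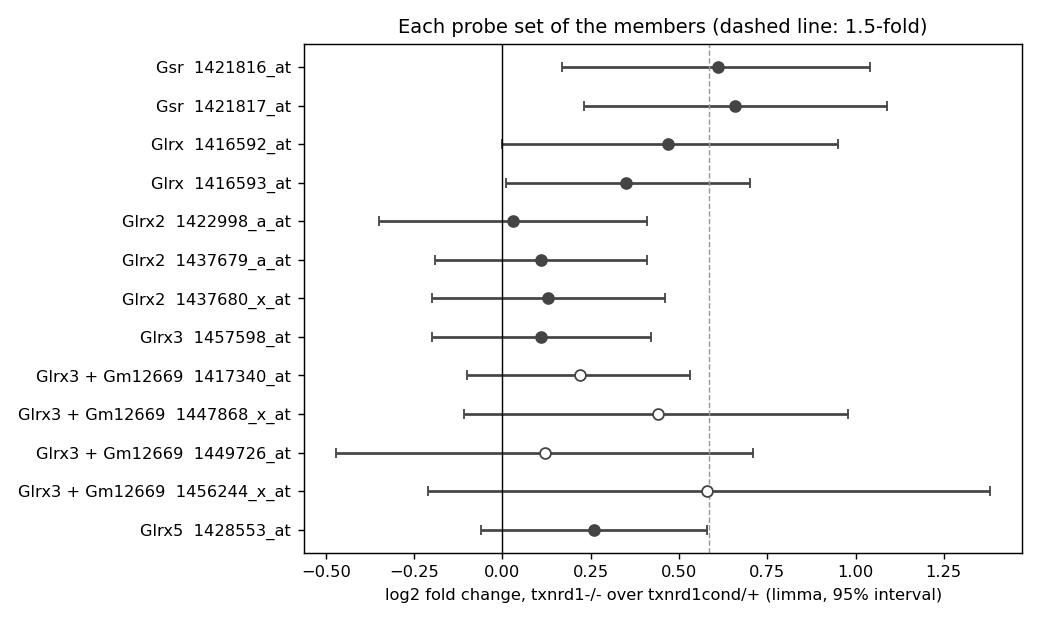
Log2 fold change of each of the 13 probe-sets, txnrd1-/- over txnrd1cond/+, with its 95% interval from limma; filled points are probe-sets of 1 gene, open points those shared by Glrx3 and Gm12669, and the dashed line marks 1.5-fold. All 13 points lie above 0, and the intervals of both Gsr probe-sets and of Glrx 1416593_at exclude 0.

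Glrx encodes glutaredoxin-1, the cytosolic dithiol enzyme that removes glutathione from proteins. Its ratio was 1.195, 1.108, 1.315 and 0.976 in txnrd1-/- livers 69, 72, 73 and 81, against 1.006, 0.928, 0.959 and 0.604 in txnrd1cond/+ livers 70, 71, 80 and 82. The groups overlapped, because txnrd1-/- animal 81, the highest for Gsr, was the lowest of its genotype for Glrx and lay below control animal 70, while control animal 82 lay far below all others. The means were 1.15 ± 0.143 in txnrd1-/- livers and 0.874 ± 0.183 in txnrd1cond/+ livers (SD, n = 4 each). The log2 fold change was 0.41 (SE 0.17, 95% interval 0.03 to 0.80), or 1.33-fold. The adjusted p in limma was 1, from an unadjusted p = 0.038, and the exact permutation test gave p = 0.057 (2-sided). Without control animal 82 the log2 fold change was 0.25. The unadjusted p was at or below 0.05 in 10 of 18 alternatives, all of them limma fits. In the 2 tests of each gene alone it was 0.09 with unequal and 0.076 with equal variance. Within animals 69 to 73 the log2 difference was 0.32, and within animals 80 to 82 it was 0.36, from mean ratios of 1.21 and 0.976 in txnrd1-/- livers and 0.967 and 0.781 in txnrd1cond/+ livers.

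The probe-sets of Glrx again ran together (r = 0.90 over 8 livers, 0.83 within genotypes). Probe-set 1416592_at stood at 1.208, 1.18, 1.257 and 0.974 in txnrd1-/- livers 69, 72, 73 and 81, against 0.989, 0.917, 1.006 and 0.514 in txnrd1cond/+ livers 70, 71, 80 and 82. Probe-set 1416593_at stood at 1.183, 1.041, 1.376 and 0.979 in txnrd1-/- livers, against 1.023, 0.94, 0.914 and 0.71 in txnrd1cond/+ livers. In both, animal 81 was the lowest txnrd1-/- liver and overlapped the controls, and animal 82 was the lowest of all. Their log2 fold changes were 0.47 (SE 0.21, 95% interval -0.00 to 0.95) and 0.35 (SE 0.16, 95% interval 0.01 to 0.70).

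The promoter of Glrx is shown because Glrx had the largest difference among the glutaredoxins. RefSeq promoter windows (build GRCm38.p6) were matched for Glrx, Glrx2, Glrx3 and Glrx5, so the counts are over these 4 members and Gsr was not searched. Windows of 250 bases before the start were searched on both strands for TGACNNNGC, the core of the antioxidant response element that Nrf2 binds, and for TGACTCA, an AP-1 element, which begins with the same TGAC. The first occurred in 0 of 4 members and in 3112 of 27025 genes (11.5%), and the second in 1 of 4 members, Glrx, and in 1395 of 27025 genes (5.16%). In Glrx the match lies on the gene's strand and begins 98 bases before the start; it is a match of letters, not a measured site. The window lies at chr13:75839635-75839884 on the plus strand, with the match in capitals.
Glrx: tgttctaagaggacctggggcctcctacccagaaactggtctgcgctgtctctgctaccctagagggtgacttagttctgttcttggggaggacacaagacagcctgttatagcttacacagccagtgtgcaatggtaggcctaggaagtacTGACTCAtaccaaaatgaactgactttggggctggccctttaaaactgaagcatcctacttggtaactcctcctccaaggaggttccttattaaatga

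Glrx2 encodes a dithiol glutaredoxin of mitochondria and nucleus, and its mRNA showed little difference between the genotypes. Its ratio was 1.079, 1.068, 0.972 and 0.966 in txnrd1-/- livers 69, 72, 73 and 81, against 1.128, 1.081, 0.759 and 0.908 in txnrd1cond/+ livers 70, 71, 80 and 82. The groups overlapped throughout, and both the highest and the lowest liver were controls. The means were 1.02 ± 0.0605 in txnrd1-/- livers and 0.969 ± 0.169 in txnrd1cond/+ livers (SD, n = 4 each). The log2 fold change of 0.09 (SE 0.14, limma p = 0.52, exact permutation p = 0.54) had a 95% interval of -0.21 to 0.39, which allows up to 1.31-fold higher and does not show that the genotypes were alike. Its sign turned without control animal 80 (-0.021), and within animals 69 to 73 the difference was -0.09, against 0.22 within animals 80 to 82. The 3 probe-sets of Glrx2 gave 0.03, 0.11 and 0.13 (SE 0.13 to 0.17) and correlated over livers at r = 0.69 to 0.87. Across the 8 livers Glrx2 varied less than Gsr and Glrx, with an SD of log2 ratios of 0.186, compared with 0.434 for Gsr and 0.335 for Glrx.

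Glrx3 and Glrx5 encode the monothiol glutaredoxins. Glrx3 is a multidomain protein of cytosol and nucleus that takes part in iron trafficking, and its only probe-set of its own, 1457598_at, stood at 0.988, 1.226, 0.995 and 0.959 in txnrd1-/- livers 69, 72, 73 and 81, against 0.78, 1.054, 1.002 and 1.025 in txnrd1cond/+ livers 70, 71, 80 and 82. The groups overlapped: animal 72 was the one txnrd1-/- liver above the controls, and animal 70 the one control below the rest. The means were 1.04 ± 0.124 in txnrd1-/- livers and 0.965 ± 0.125 in txnrd1cond/+ livers (SD, n = 4 each), a log2 fold change of 0.11 (SE 0.13, 95% interval -0.18 to 0.41, limma p = 0.41, exact permutation p = 0.57). Without control animal 70 it was 0.01, and without txnrd1-/- animal 72 it was 0.03.

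The 4 probe-sets that Glrx3 shares with the pseudogene Gm12669 did not follow 1457598_at. Probe-set 1456244_x_at was the most variable, at 1.061, 1.061, 0.935 and 2.026 in txnrd1-/- livers 69, 72, 73 and 81, against 0.864, 1.383, 0.416 and 0.848 in txnrd1cond/+ livers 70, 71, 80 and 82. Its groups overlapped, and its highest value was again that of animal 81. Probe-set 1447868_x_at likewise was highest in animal 81, at 1.677, against 0.926 to 1.071 in the other txnrd1-/- livers and 0.632 to 1.059 in txnrd1cond/+ livers. The log2 fold changes of the shared probe-sets were 0.12, 0.22, 0.44 and 0.58 (unadjusted limma p of 0.10 to 0.65), and their correlation with 1457598_at over livers ran from -0.22 to 0.22, while 1417340_at and 1447868_x_at correlated at r = 0.95. Without animal 81 the log2 fold changes of 1417340_at, 1447868_x_at and 1456244_x_at were 0.14, 0.24 and 0.34, and that of 1456244_x_at was 0.27 without control animal 80 and 0.84 without control animal 71. Whether they read Glrx3, the pseudogene or both cannot be told apart here. When they were averaged with 1457598_at, the log2 fold change of Glrx3 was 0.30 in place of 0.11, and it was not called.

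Glrx5 encodes the mitochondrial monothiol glutaredoxin that hands on newly made iron-sulfur clusters, and loss of it in zebrafish impairs heme synthesis. Its single probe-set, 1428553_at, stood at 0.997, 0.992, 1.063 and 1.151 in txnrd1-/- livers 69, 72, 73 and 81, against 1.046, 0.873, 0.929 and 0.69 in txnrd1cond/+ livers 70, 71, 80 and 82. Control animal 70 overlapped the txnrd1-/- livers, while the other 3 controls lay below all of them, animal 82 most. The means were 1.05 ± 0.0743 in txnrd1-/- livers and 0.884 ± 0.148 in txnrd1cond/+ livers (SD, n = 4 each). The log2 fold change was 0.26 (SE 0.13, 95% interval -0.04 to 0.56), or 1.2-fold, with limma p = 0.082 and an exact permutation p = 0.086. It was 0.15 without control animal 82 and 0.35 without control animal 70, and within animals 69 to 73 it was 0.09, against 0.52 within animals 80 to 82.

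**Figure D3:**
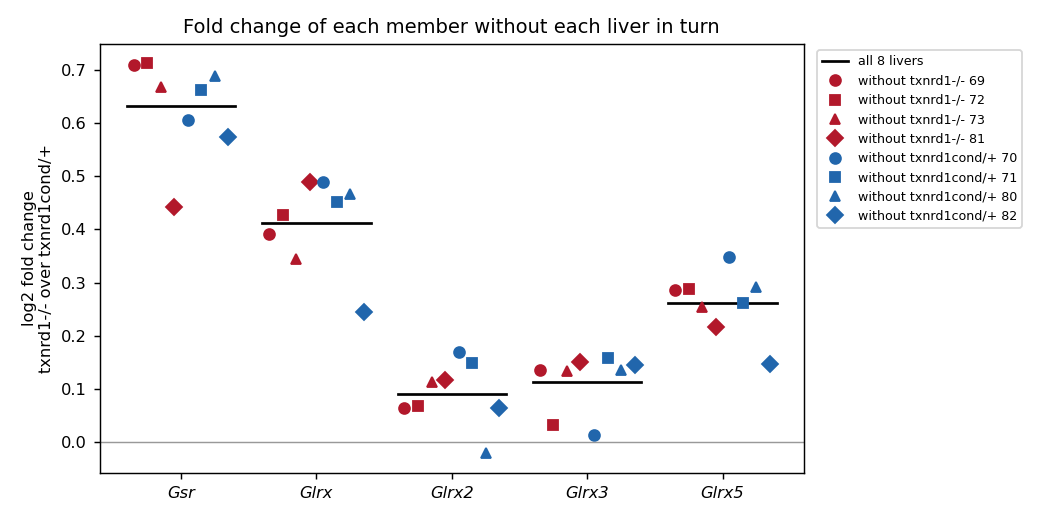
Log2 fold change of each member gene, txnrd1-/- over txnrd1cond/+, with all 8 livers (black line) and without each liver in turn (red, a txnrd1-/- liver left out; blue, a txnrd1cond/+ liver left out). Gsr is lowest without animal 81 (0.44), Glrx and Glrx5 are lowest without animal 82 (0.25 and 0.15), and Glrx2 lies just below 0 without animal 80.

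As a set the members leaned toward higher values in txnrd1-/- livers. The log2 fold change was above 0 in 5 of 5 genes and 13 of 13 probe-sets, as it was in 51.1% of all genes and 51.2% of all probe-sets, and the median over the 5 genes was 0.26, compared with 0.003 over all genes, whose 95th percentile was 0.25. The mean ratio over the members ran from 1.06 to 1.14 in txnrd1-/- livers and from 0.773 to 0.954 in txnrd1cond/+ livers. Probe-sets and genes share the same 8 livers, so their common direction is a description of these animals. The lowest liver was control animal 82 for Gsr, Glrx and Glrx5, control animal 80 for Glrx2 and control animal 70 for Glrx3. Over the 8 livers Glrx and Glrx5 ran most closely together (r = 0.82, and 0.69 within genotypes), followed by Gsr and Glrx5 (r = 0.72, and 0.48 within genotypes). Gsr and Glrx correlated at 0.47, but at -0.10 once the genotype means were taken out, and animal 81 was the highest txnrd1-/- liver for one and the lowest for the other. Glrx3 had no member close to it, with r of -0.27 to 0.14 to the other 4.

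The genes whose pattern over the 8 livers was most like that of Gsr were Srxn1 (Pearson r = 0.962), Ikbkg (0.962), Bach1 (0.96), Slc48a1 (0.957) and Fth1 (0.954), among 18187 genes compared. Srxn1 encodes sulfiredoxin, which restores overoxidized peroxiredoxins, and Ikbkg a regulatory subunit of the IκB kinase. Bach1 encodes a heme-regulated transcriptional repressor, Slc48a1 a heme transporter and Fth1 the heavy chain of ferritin. All 5 were highest in animal 81, at ratios of 2.835 for Srxn1, 1.934 for Ikbkg, 2.114 for Bach1, 3.308 for Slc48a1 and 1.382 for Fth1. In all 5 every txnrd1-/- liver was above every control, as in 1.13% of all genes. Both traits are those of Gsr, by which the 5 were chosen, so they are not separate evidence. Within genotypes the correlations were 0.886 to 0.903, with animal 81 included. Log2 fold changes were 1.07, 0.67, 0.82, 1.17 and 0.28 in the same order, and none was called (adjusted p of 0.56 to 1 in limma). For Glrx the list was Zik1 (0.959), Hdac3 (0.952), Tceal8 (0.947), Snx27 (0.944) and Gstt2 (0.943), which include a histone deacetylase, a sorting nexin and a theta-class glutathione transferase. All 5 were lowest in control animal 82, with ratios of 0.834, 0.755, 0.334, 0.73 and 0.334. These correlations describe 8 livers that all the genes share, and in each list the member and its 5 genes share their extreme liver.

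**Figure D4:**
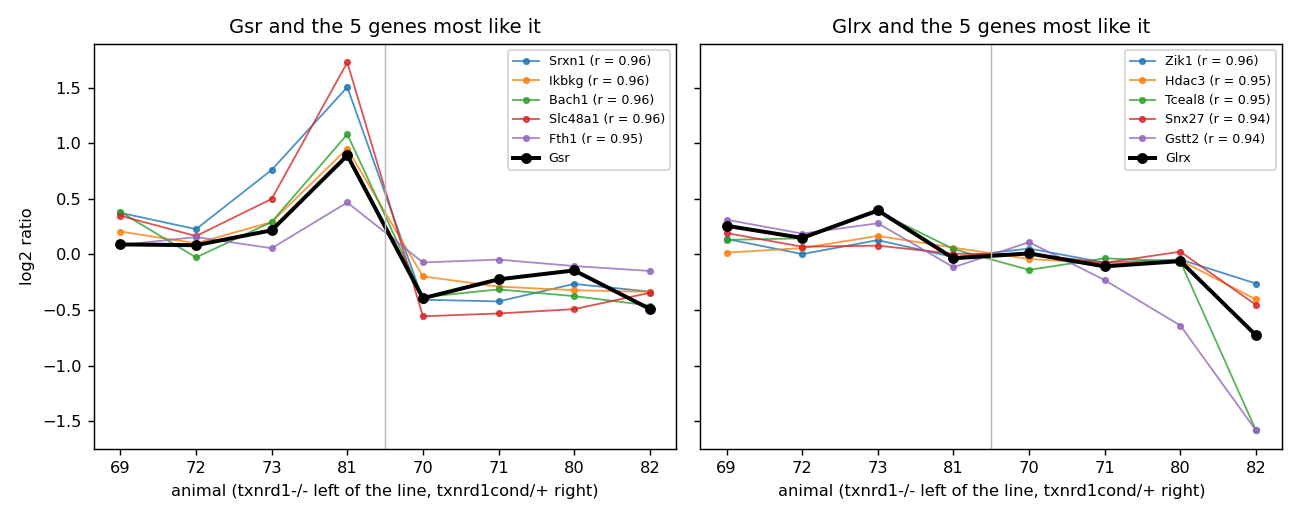
Log2 ratio of Gsr (left, black) and Glrx (right, black) and of the 5 genes most like each in every liver, txnrd1-/- animals left of the vertical line and txnrd1cond/+ animals right of it; lines join the points of a gene and imply no order of animals. The genes like Gsr peak with it in animal 81, and those like Glrx have their lowest value with it in animal 82.

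Genes of neighbouring pathways were read in the same fit, and 0 of the measured genes in 7 lists were called. A listed gene was measured if it had a probe-set with a single symbol. Unless it is the highest or the lowest of its list, a gene named here was chosen after its value was seen. Glutathione synthesis and turnover, the making and breakdown of glutathione, had 10 of 11 genes measured and a median log2 fold change of 0.33. In it 3 genes were higher at an unadjusted p within 0.05, where 1.71% of all genes were higher (the background of each such count in these lists). These were Gclc and Gclm, the subunits of glutamate-cysteine ligase (1.05, SE 0.23, and 0.67, SE 0.19), and Oplah, an oxoprolinase (0.46, SE 0.19). Gclc stood at 1.265, 1.358, 1.136 and 2.59 in txnrd1-/- livers 69, 72, 73 and 81, against 0.687, 0.741, 0.692 and 0.774 in txnrd1cond/+ livers 70, 71, 80 and 82. As with Gsr the groups did not overlap, as in 1.13% of all genes, and animal 81 was the highest. Without animal 81 the median of the list was 0.13. The lowest gene was Ggt5 (-0.17).

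NADPH supply, the source of electrons for glutathione reductase, had 12 of 13 genes measured, 2 of them higher at an unadjusted p. Me1, the cytosolic malic enzyme, had a log2 fold change of 0.69 (SE 0.23) and Tkt, transketolase, 0.52 (SE 0.13). The lowest gene was Me3 (-0.11), and the median was 0.10 (0.08 without animal 81 and 0.17 without animal 73). All 6 listed genes of glutathione peroxidases, which produce the disulfide that glutathione reductase uses, had log2 fold changes above 0, as had 51.1% of all genes. For Gpx1 and Gpx3 the value was only 0.03 (SE 0.09 and 0.21). In this list 2 genes were higher at an unadjusted p, and the median was 0.24 (0.16 without animal 69, 0.37 without animal 72 and 0.38 without control animal 70). Gpx2 was the highest (1.08, SE 0.30), followed by Gpx4, which reduces lipid hydroperoxides (0.56, SE 0.15), and Gpx8 was the lowest (0.01). The list of protein deglutathionylation and disulfide exchange holds 8 genes, not all of which are known for these activities. Of them, 3 were higher at an unadjusted p and the median was 0.11 (0.06 without animal 81, 0.05 without control animal 71 and 0.17 with only the most variable probe-set of each gene). Srxn1 was the highest (1.07, SE 0.24, adjusted p = 0.56 in limma), followed by Gstp1 (0.59, SE 0.20) and Gsto1, a glutathione transferase with thiol transferase activity (0.47, SE 0.15), and Hagh was the lowest (-0.03).

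The remaining 3 lists had 0 genes at an unadjusted p of at most 0.05 in either direction. The thioredoxin system, all 9 genes measured, had a median of 0.00, between Txnip, an inhibitor of thioredoxin (-0.13), and Txn1 (0.25); the median ran from -0.02 to 0.09 without 1 liver. Txnrd1 stands in this list as the average of its 3 opposed probe-sets (1.11, -0.71 and -0.41), each of which had an unadjusted p of at most 0.05 on its own and an adjusted p of 1 in limma. Iron-sulfur cluster assembly, in which Glrx5 and Glrx3 act, had 17 of 22 genes measured and a median of 0.05, between Ciao3 (-0.08) and Nubpl (0.32), with medians of 0.02 to 0.10 without 1 liver (0.02 without animal 81, 0.10 without animal 72). Peroxiredoxins, the thioredoxin-dependent peroxidases, had 3 of 6 genes measured, and the others had no probe-set with a single symbol. The measured genes ran between 0.10 for Prdx2 and 0.16 for Prdx4, with a median of 0.13. The median was 0.26 with only the most variable probe-set of each gene and 0.08 without control animal 82. No difference between these lists and the members was tested.

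**Figure D5:**
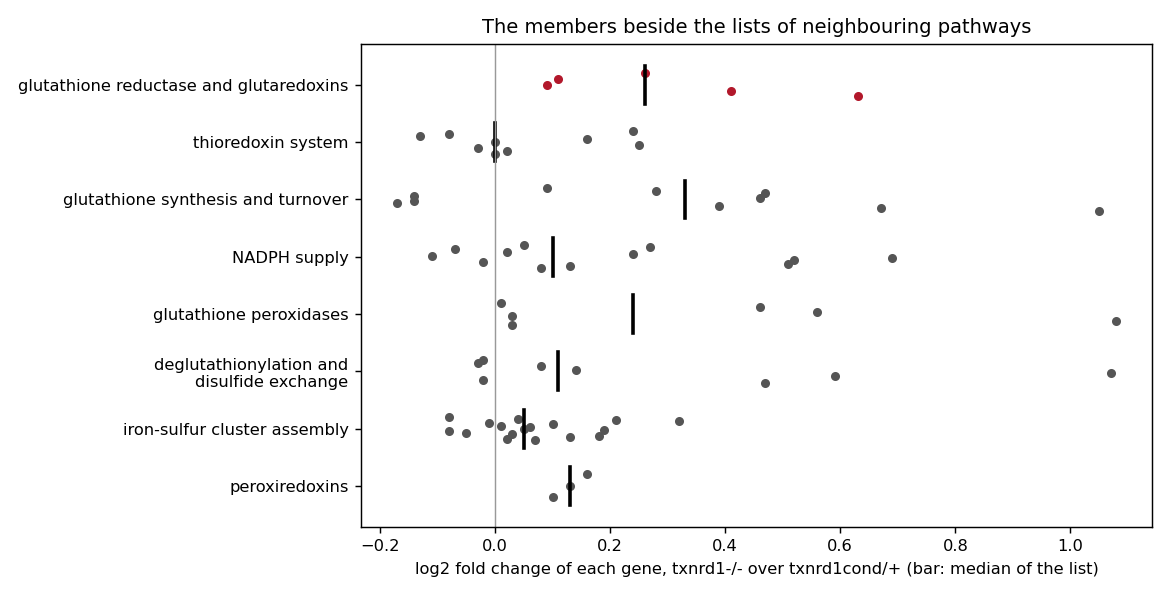
Log2 fold change of each gene, txnrd1-/- over txnrd1cond/+, for the 5 members (red) and the measured genes of 7 neighbouring lists (grey), with the median of each list as a bar. The members' median (0.26) lies near those of glutathione peroxidases (0.24) and glutathione synthesis (0.33), and the bars of the thioredoxin system (0.00) and of iron-sulfur cluster assembly (0.05) lie near 0.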

How the data were processed

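Liver RNA of each of 8 mice was hybridized to an Affymetrix mouse expression array. The values that the authors deposited are ratios on a linear scale: the median over the 8 arrays lies between 0.772 and 1.075 for every probe-set, and array medians are 0.997 to 0.999. The methods name GeneSpring and the submitters' processing notes name RMA. Signal levels are not kept, so the minimum signal of the methods could not be applied. After removal of 64 array controls from 45101 probe-sets, tests covered 45037, of which 34945 carry 1 gene symbol, 932 several and 9160 none in the platform annotation, with symbols updated through RefSeq (GRCm38.p6); 5 values are empty.

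Log2 ratios were compared with limma 3.58.1 (lmFit and eBayes, 2-sided) in R 4.3.3, with Benjamini-Hochberg adjustment over all probe-sets, or over all 18193 genes, where probe-sets with 1 symbol were averaged per gene. Fold changes compare geometric means, whereas printed means ± SD are arithmetic. The smallest p of the exact permutation test over all 70 assignments of the livers is 0.029. The number of arrays limits the precision. On simulated data (45033 probe-sets) the number called by limma, out of 50 simulated at each size, was 5 at 1.5-fold, 27 at 2-fold, 44 at 4-fold and 50 at 8-fold, and 3 calls were false.

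Named genes are the members with each of their probe-sets, each probe-set of Txnrd1, the genes called in a pathway list or else its highest and lowest, and the 5 genes with the highest Pearson r to Gsr and to Glrx. Gclm, Oplah, Tkt, Gpx1, Gpx3, Gpx4, Gstp1, Gsto1, Cpa1 and Prtn3 fall outside this rule and were chosen after their values were seen. The members and lists were chosen with earlier results of these data known. Alternatives were other scalings, robust and weighted fits, an animal-number covariate (69 to 73 or 80 to 82), tests of each gene alone, other summaries of probe-sets and leaving out each animal. The hybridization control covariate and the average of Glrx3 with its shared probe-sets were added after seeing the data. Plots used matplotlib 3.10.9 (Python 3.11.15).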

Additional observations from a re-analysis of the deposited data

Results flagged for a closer look

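A liver that stood far from the other 3 of its genotype, by its gap to the nearest of them relative to the range of the group, was found in 10 of 36 groups of values, 4 of 10 for genes and 6 of 26 for probe-sets, where chance alone gives about 5%. The groups share livers and probe-sets and are not separate.

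For Gsr, txnrd1-/- animal 81 had a ratio of 1.853, with the other txnrd1-/- livers at 1.059 to 1.162, and its probe-set 1421817_at had 1.884 in that liver, with the others at 1.074 to 1.14. The same animal had 2.026 for 1456244_x_at, shared by Glrx3 and Gm12669, with the other txnrd1-/- livers at 0.935 to 1.061. For Glrx3, read by 1457598_at, txnrd1-/- animal 72 had 1.226, with the others at 0.959 to 0.995, and txnrd1cond/+ animal 70 had 0.78, with the other controls at 1.002 to 1.054. For Glrx, txnrd1cond/+ animal 82 had 0.604, with the other controls at 0.928 to 1.006, and its probe-set 1416592_at had 0.514, with the others at 0.917 to 1.006. Animal 82 also had 0.529 for the shared probe-set 1449726_at, with the other controls at 1.0 to 1.137. For the genes, the fold changes without these livers stand with each member above.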

How the results depend on the processing

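No paired analysis was run, because the labels give the genotypes no shared replicate numbers. The alike arrays of opposite genotype, animals 72 and 71 (r = 0.5) and animals 69 and 70 (r = 0.42), were not fitted as pairs. Of 453 recomputed values, 430 were kept, 14 moved and 9 changed sign. A fold change was kept if its direction and side of the threshold held, whatever its size. Robust fits and tests of each gene alone leave the direction unchanged by construction. Glrx3 and Glrx5 each have 1 probe-set with a single symbol, which enters at both the gene and the probe-set level. The number of kept values is therefore not a measure of robustness. A list median was kept if it stayed within the spread, and a count of members if it changed by at most 1.5-fold. The number of member genes and of member probe-sets called was 0 in all 19 and 16 alternatives. The 2 member genes higher at an unadjusted p became 1, Gsr, with the animal-number covariate, in tests of each gene alone with unequal or with equal variance and with the probe-set of largest variance, and 1 to 3 when a liver was left out (1 without animal 82, 69, 72 or 73, and 3 without animal 70). The 3 probe-sets at that p became 2 to 5 without 1 liver, with 5 without control animal 70. Log2 fold changes without 1 liver ran from 0.443 to 0.712 for Gsr, 0.245 to 0.490 for Glrx, -0.021 to 0.170 for Glrx2, 0.014 to 0.159 for Glrx3 and 0.148 to 0.348 for Glrx5. The sign turned for Glrx2 probe-set 1422998_a_at with array weights (-0.009), with the animal-number covariate (-0.052) and without 1 liver (-0.117 to 0.141), and for the shared probe-set 1449726_at with quantile normalization (-0.095), with array weights (-0.151) and without 1 liver (-0.124 to 0.258). The cause was not tested. With 4 arrays per genotype, 5 of 50 simulated 1.5-fold changes were called. These were planted in probe-sets drawn at random, with independent noise, whereas Gsr had a larger SD over the 8 livers than 94% of genes. The simulated rate is therefore not that of Gsr. An uncalled difference of the size seen in Gsr is not shown to be absent.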
